A study of Mus musculus with 16 samples.

Results

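The T-box transcription factors described here are 8 genes, *T* (brachyury), *Tbx2*, *Tbx3*, *Tbx4*, *Tbx5*, *Tbx6*, *Tbx15*, and *Tbx18*, taken from the count tables by mapping Ensembl identifiers to mouse symbols. All 8 are among the 29629 genes of the single-cell table and the 47729 genes of the tendon table. The study followed mesodermal cells, made from mouse iPSCs with the Wnt agonist CHIR99021 and the Hedgehog inhibitor cyclopamine, as TGF-β2 turned them into tenocytes. Cells at T0 had not received TGF-β2, and those at T3, T6, and T9 had been in it for 3, 6, and 9 days. Each time point has 3 plates of 384 wells, with 1 sorted cell per well, and all cells come from 1 clone carrying the *ScxGFP* transgene, in which regulatory sequence of the tendon gene *Scx* drives GFP. The second experiment is bulk RNA of the Achilles tendon at 2 weeks of age, with 2 samples of wild-type mice (Wt) and 2 of mice lacking *Scx* on both alleles (homoKO). The sources used here do not say that the plates of a time point came from separate cultures, so p-values measure the spread between plates, which may be technical.

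T-box proteins bind DNA through a conserved region, the T-box, and act as activators or repressors, often recruiting Groucho co-repressors of the Tle family. In the embryo they mark and shape the mesoderm from which tendon progenitors arise. *T* and *Tbx6* act in the primitive streak and the presomitic mesoderm, and *Tbx4* and *Tbx5* start the growth of the hind limb and the forelimb. *Tbx2* and *Tbx3* are repressors active in limb, heart, and other tissues. *Tbx15* and *Tbx18* act in dermis, skeleton, and muscle and in somites and epicardium, respectively.

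All members are protein-coding genes of GRCm38 in the GENCODE M21 annotation. *Tbx2* (ENSMUSG00000000093, chr11:85832551-85841948, plus strand) and *Tbx4* (ENSMUSG00000000094, chr11:85886422-85916097, plus strand) lie near each other on chromosome 11. *Tbx3* (ENSMUSG00000018604, chr5:119670669-119684724, plus strand) and *Tbx5* (ENSMUSG00000018263, chr5:119832668-119885219, plus strand) form a second such pair. *T* (ENSMUSG00000062327) is at chr17:8434423-8442496 on the plus strand, *Tbx6* (ENSMUSG00000030699) at chr7:126781483-126785560 on the plus strand, *Tbx15* (ENSMUSG00000027868) at chr3:99240381-99354259 on the plus strand, and *Tbx18* (ENSMUSG00000032419) at chr9:87702800-87731260 on the minus strand.

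Related members carry similar coding sequence, so the transcripts were searched for stretches that a read could match in more than 1 member. Among the 28 pairs of members the longest identical run was 23 bases, and no stretch of 30 bases was shared. Related pairs follow as coding sequence, 5′ to 3′ on the gene's strand, with the identical run in capitals. The *Tbx15* and *Tbx18* pair is from exon 4 of both, at chr3:99314744-99314800 and, on the minus strand, at chr9:87724417-87724473. *Tbx2* and *Tbx3* had no identical run of more than 14 bases, in exon 3 at chr11:85835795-85835853 and exon 4 at chr5:119675558-119675616, respectively.
Tbx15: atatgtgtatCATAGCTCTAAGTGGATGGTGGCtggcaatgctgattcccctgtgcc
Tbx18: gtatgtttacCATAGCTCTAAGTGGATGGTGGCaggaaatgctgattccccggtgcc
Tbx2: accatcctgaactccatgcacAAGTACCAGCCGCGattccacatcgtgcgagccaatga
Tbx3: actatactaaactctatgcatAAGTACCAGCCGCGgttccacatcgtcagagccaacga

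The spans of 3 members are shared with genes on the other strand, and the strand setting of the counting is not given in the sources used here. *Tbx3os1*, an antisense gene, shares 697 bases with the *Tbx3* span and held 961 UMIs over the 12 plates. *Gm43120* in *Tbx15* and *D030062O11Rik* in *Tbx18* held 3 and 7 UMIs.

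CEL-Seq2 tags each captured mRNA with a unique molecular identifier (UMI), so that its PCR copies count once. Plates summed to between 1921125 and 4657093 UMIs over 4594 cells with at least 200 detected genes. The same 384 cell barcodes are used in every plate. A level in CPM is a gene's number of UMIs for every 1000000 UMIs of its plate. The method reads the 3′ end of each molecule, so CPM were compared between members without dividing by length. The libraries fall into 2 sides by the share of reads in no annotated feature, which was at least 9% in 7 plates (T0 plates 1 to 3, T3 plate 2, T6 plates 1 and 3, T9 plate 3) and lower in 5. As a check of the labels, tenocyte markers summed to between 797 and 800.5 CPM in the plates of T0 and to between 14214 and 41169 CPM at T9, and the late tenocyte gene *Tnmd* had no UMIs at T0. Markers of pluripotent cells, all 8 of them detected at T0, summed to between 371 and 780.3 CPM there and to between 0.332 and 296 CPM at T9.

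The members differed widely in level, and the repressors *Tbx3* and *Tbx2* led at every time point. *Tbx3* had 4492 UMIs in the 12 plates and *Tbx2* had 2152. *Tbx18* had 151, *Tbx4* 140, *Tbx5* 125, *Tbx15* 40, *Tbx6* 14, and *T* 4. At T0 the order by mean level was *Tbx3*, *Tbx2*, *Tbx18*, *Tbx4*, *Tbx5*, *Tbx15*, *Tbx6*, and *T*, and the plates of neighbouring members overlapped only for *Tbx6* and *T*. At T9 *Tbx3* and *Tbx2* still stood apart from each other and from the rest, whereas the ranges of every neighbouring pair from *Tbx5* down overlapped.

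**Figure D1:**
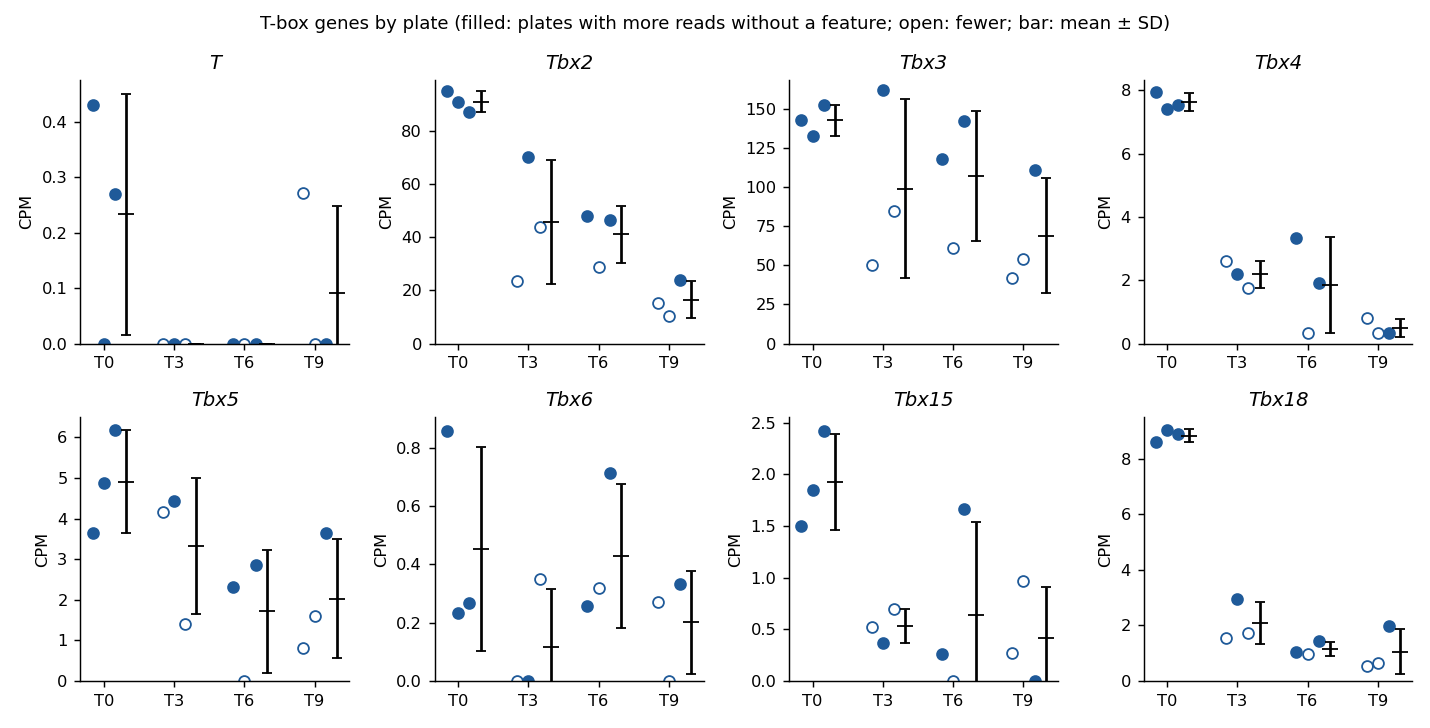
Level of each T-box gene in CPM (vertical axis, starting at 0, own scale per gene) in the 3 plates of T0, T3, T6, and T9, with the mean ± SD to the right of the plates. *Tbx4* and *Tbx18* are highest in all 3 plates of T0, and *Tbx2* and *Tbx3* are higher in plates with more reads without a feature (filled) than in the others (open) at T3, T6, and T9.

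Between T0 and T3, *Tbx2*, *Tbx4*, and *Tbx18* fell, and no member was called higher. In this comparison 33.2% of the 13372 genes tested were called at an adjusted p of 0.05 (edgeR), and 16.2% were called lower. Only 5 members (*Tbx2*, *Tbx3*, *Tbx4*, *Tbx5*, and *Tbx18*) passed the filter on low counts. *Tbx4* and *Tbx18* passed it only through T0, and they and *Tbx5* are highest there. The number of falls among the tested members is therefore no sign of a common direction. *T*, *Tbx6*, and *Tbx15* were not tested.

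*Tbx18*, a factor of the anterior somite and the epicardium, had the lowest log2 fold change of the tested members between T0 and T3. It stood at 8.59, 9.03, and 8.88 CPM in the plates of T0 (40, 39, and 33 UMIs) and at 1.56, 2.95, and 1.74 CPM at T3 (3, 8, and 5 UMIs). The groups did not overlap, and the log2 fold change was -1.85 (SE 0.46, adjusted p = 0.00689, edgeR). It remained low, at 1.14 ± 0.26 CPM at T6 and 1.06 ± 0.81 CPM at T9 (SD, n = 3), levels of 2 to 6 UMIs per plate. Its T9 level was 6.13-fold lower than that of T0 (log2 fold change -2.61, SE 0.48, adjusted p = 0.000585, edgeR). With only the 7 plates that had more such reads, edgeR gave -1.61 for T3 (adjusted p = 0.0309) and -1.97 for T9 (adjusted p = 0.0117). T3 and T9 have 1 plate each there. In every fit of these 7 plates the spread therefore comes from T0 and T6 alone, and the lone plates are assumed to vary like them. *Tbx18* passed the filter on low counts only through T0, so its tests depend on its level there. Without the filter edgeR gave -1.92 for T3 (adjusted p = 0.0153) and -2.68 for T9 (adjusted p = 0.000403).

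*Tbx4*, the hind limb factor, showed a like course at low counts. It stood at 7.94, 7.41, and 7.53 CPM at T0 (37, 32, and 28 UMIs) and at 2.60, 2.21, and 1.74 CPM at T3 (5, 6, and 5 UMIs). All plates of T0 were above those of T3, and the log2 fold change was -1.58 (SE 0.57, adjusted p = 0.0449, edgeR). This call was lost when any 1 of the 6 plates was left out, with adjusted p between 0.0608 and 0.136. It was also lost without the filter on low counts (adjusted p = 0.0561, edgeR). At T6 the level was 1.85 ± 1.51 CPM (SD, n = 3) with 13, 1, and 8 UMIs, and at T9 it was 0.489 ± 0.282 CPM with 3, 1, and 1. The fall from T0 to T9 was called (log2 fold change -3.33, SE 0.67, adjusted p = 0.00106, edgeR), and no left-out plate changed that. Like *Tbx18*, *Tbx4* passed the filter only through T0, so its tests depend on its level there.

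*Tbx2*, which represses cell cycle inhibitors in several tissues, fell from T0 to T3 and from T0 to T9. It stood at 94.9, 91.0, and 86.9 CPM in the plates of T0 (442, 393, and 323 UMIs). T3 gave 23.4, 70.0, and 43.9 CPM, T6 gave 47.9, 28.6, and 46.6 CPM, and T9 gave 15.2, 10.3, and 23.9 CPM. T0 lay above all later plates, and T9 lay below all plates of T6. The log2 fold change from T0 to T3 was -0.80 (SE 0.25, adjusted p = 0.0238, edgeR), and from T0 to T9 it was -2.01 (SE 0.26, adjusted p = 3.25e-05), a 4.02-fold lower level. At T3, T6, and T9 the plates with more reads without a feature stood above the others, as they did in 44.9% of the 11683 genes with at least 100 UMIs in these plates. With only the 7 plates, and so with 1 plate each of T3 and T9, edgeR gave a change from T0 of -0.42 for T3 (adjusted p = 0.0555) and -1.76 for T9 (adjusted p = 5.21e-06). The T3 call was also lost without plate 1, 2, or 3 of T0 or plate 1 or 3 of T3, with adjusted p between 0.0606 and 0.0771.

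*Tbx3*, a repressor of limb and mammary development that is also expressed in pluripotent cells, was the most abundant member, and its changes did not pass the test. The plates of T0 gave 143.0, 132.7, and 152.3 CPM and those of T3 gave 50.5, 162.1, and 84.7 CPM. T6 gave 118.0, 61.1, and 142.0 CPM, and T9 gave 42.1, 54.0, and 110.8 CPM. The T9 plates were all below those of T0, and the log2 fold change was -0.63 (SE 0.30, adjusted p = 0.0992, edgeR). In edgeR it was called without plate 3 of T9 (-0.93, adjusted p = 0.0235), without the filter on low counts (-0.69, adjusted p = 0.0120), and in a fit of the 6 plates of T0 and T9 (-0.61, adjusted p = 0.0446). T3 plate 2, T6 plates 1 and 3, and T9 plate 3 were the high ones of their time points, and all are on the side with more reads without a feature. Within that side, with 1 plate of T9, edgeR gave a change from T0 to T9 of -0.20 (adjusted p = 0.361), and with the side as a covariate it was -0.17 (adjusted p = 0.452).

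The antisense gene *Tbx3os1* took another course than *Tbx3* and was singled out after its values were seen. Its mean was 10.3 ± 1.98 CPM in the plates of T0 and 59.2 ± 29.2 CPM in those of T3, then 26.1 ± 9.66 CPM for T6 and 7.60 ± 4.70 CPM for T9 (SD, n = 3). The plates of T3 (44.2, 92.9, and 40.4 CPM) were all above those of T0 (12.5, 9.73, and 8.61 CPM), whereas those of *Tbx3* overlapped. Whether reads of 1 gene were counted for the other was not tested.

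*Tbx5*, the forelimb and heart factor, was too rare for its differences to pass the test. It had 17, 21, and 23 UMIs in the plates of T0 and 8, 12, and 4 in those of T3. T6 gave 9, 0, and 12 UMIs and T9 gave 3, 5, and 11. In CPM the plates of T3 overlapped those of T0, and the plates of T6 and T9 lay below them, at T9 by the narrow gap of 3.648 CPM (plate 3) to 3.650 CPM (plate 1 of T0). Its level was 4.90 ± 1.27 CPM at T0 and 2.02 ± 1.46 at T9 (SD, n = 3), and the log2 fold change was -0.87 (SE 0.71, adjusted p = 0.334, edgeR).

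**Figure D2:**
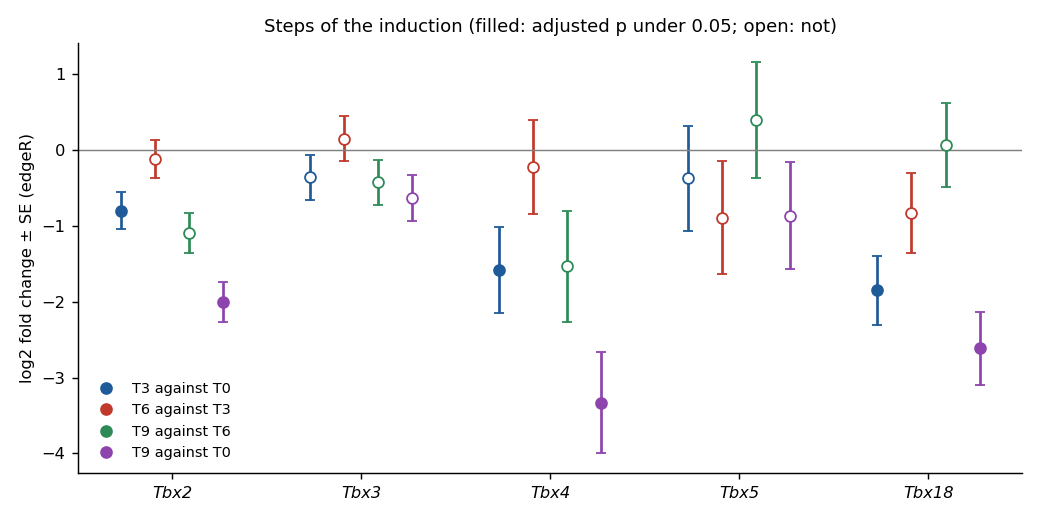
Log2 fold change with its SE (vertical axis, edgeR) of the 5 tested members in 4 comparisons of time points, with filled points where the adjusted p was under 0.05. *Tbx2*, *Tbx4*, and *Tbx18* are filled for T3 against T0 and for T9 against T0, and no point is filled for T6 against T3 or T9 against T6.

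After T3, no member was called between neighbouring time points. Between T3 and T6, where 4.24% of all genes were called, the log2 fold changes of the 5 tested members lay between -0.89 (*Tbx5*) and 0.15 (*Tbx3*). None had an unadjusted p under 0.05 in edgeR, found for 2493 of the 13372 genes, and none was called by DESeq2. Between T6 and T9, with 1.62% called, *Tbx2* changed by -1.09 (SE 0.26, adjusted p = 0.0552, edgeR). It was the only member with an unadjusted p under 0.05, found for 2104 of the 13372 genes. *Tbx2* was called by DESeq2 (adjusted p = 0.00845), and by edgeR without plate 2 of T6 (adjusted p = 0.0320) and without plate 3 of T9 (adjusted p = 0.0314). Between T0 and T9, *Tbx2*, *Tbx4*, and *Tbx18* fell, where 45.2% of all genes were called and 21.6% were called lower. The comparisons with T0 share its 3 plates, through which alone *Tbx4* and *Tbx18* passed the filter.

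*T*, *Tbx6*, and *Tbx15* were near or at the lower limit of these libraries. The mesodermal factor *T* had 2, 0, and 1 UMIs at T0, none in the 6 plates of T3 and T6, and 1, 0, and 0 at T9. Its UMIs lay in 3 of the 4594 cells, and the 0 of 1151 cells at T3 allows a share of cells with a UMI of up to 0.261%. *Tbx6*, a factor of presomitic mesoderm, had 4, 1, and 1 UMIs in the plates of T0 and 0, 0, and 1 in those of T3, then 1, 1, and 3 for T6 and 1, 0, and 1 for T9, never more than 1 in a cell. At this depth no difference between time points could be seen for *T* or *Tbx6*, since 3 UMIs of a plate amount to between 0.644 and 1.56 CPM. *Tbx15*, a factor of dermis, skeleton, and muscle, had 7, 8, and 9 UMIs at T0 (1.93 ± 0.46 CPM, SD, n = 3) and 1, 1, and 2 at T3. T6 gave 1, 0, and 7 UMIs of *Tbx15* and T9 gave 1, 3, and 0. The plates of T0 were above those of T3 and T9, and plate 3 of T6, with 1.67 CPM, lay within the range of T0.

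RefSeq promoter sequences of GRCm38.p6 were given for 4 of the 8 members, and 3 are shown because *Tbx4* and *Tbx18* fell together and *T* held 4 UMIs in all plates. Each is the 250 bases before the annotated start, 5′ to 3′ on the gene's strand, and holds no exon of its gene. The T-box core motif AGGTGT, the TATA box TATAAA, and the CCAAT box were searched on both strands, matches are in capitals, and none overlap. The T-box core was in 11.8% of the 32851 promoters of the table, TATAAA in 12.4%, and CCAAT in 33.8%. The *Tbx4* sequence, chr11:85896515-85896764, lies in an intron of the longer transcripts, at an inner start, and has a TATA box match on the opposite strand 85 bases before this start. The *Tbx18* sequence, chr9:87731261-87731510, is on the minus strand, with a CCAAT match 87 bases before the start. The *T* sequence, chr17:8434173-8434422, has a CCAAT match 218 bases and the T-box core 14 bases before the start. The *Tbx4* and *Tbx18* sequences share none of the 3 motifs.
Tbx4: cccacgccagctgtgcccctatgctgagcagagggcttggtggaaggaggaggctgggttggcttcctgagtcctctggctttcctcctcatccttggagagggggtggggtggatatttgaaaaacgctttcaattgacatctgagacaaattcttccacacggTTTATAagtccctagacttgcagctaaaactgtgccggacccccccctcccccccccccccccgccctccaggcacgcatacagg
Tbx18: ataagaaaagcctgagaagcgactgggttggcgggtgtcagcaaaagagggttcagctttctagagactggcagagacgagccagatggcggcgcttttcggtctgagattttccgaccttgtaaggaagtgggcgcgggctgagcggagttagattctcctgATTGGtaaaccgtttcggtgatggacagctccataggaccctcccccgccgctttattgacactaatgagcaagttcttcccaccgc
T: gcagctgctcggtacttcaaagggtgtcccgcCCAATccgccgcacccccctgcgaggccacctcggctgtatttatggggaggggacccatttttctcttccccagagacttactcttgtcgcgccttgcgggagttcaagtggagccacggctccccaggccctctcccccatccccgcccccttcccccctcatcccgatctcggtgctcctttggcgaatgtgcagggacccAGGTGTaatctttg

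By the share of cells, the same members led. At T0 at least 1 UMI of *Tbx3* was found in 59.1% ± 3.94 of cells and of *Tbx2* in 46.5% ± 3.84 (SD, n = 3 plates). *Tbx18* was found in 6.80% ± 1.37, *Tbx4* in 5.06% ± 0.30, *Tbx5* in 3.14% ± 0.26, and *Tbx15* in 1.83% ± 0.26. Depth differed, with median UMIs per cell of a plate between 4575 and 11492, so each cell was also thinned to 3000 UMIs and shallower cells were left out (76 of T0, 113 of T3, 68 of T6, 36 of T9). In the order T0, T3, T6, T9, the thinned share of *Tbx2* was 21.9% ± 1.68, 10.9% ± 5.98, 10.9% ± 3.32, and 3.98% ± 1.36 (SD, n = 3). That of *Tbx3* was 31.8% ± 1.36, 20.1% ± 11.3, 24.05% ± 9.12, and 15.8% ± 7.95. Only the plates of T0 and T9 stood apart for *Tbx3*, while for *Tbx2* T0 lay above all later plates. *Tbx18* was in 2.15% ± 0.44 of cells at T0 and 0.281% ± 0.283 at T3, the latter being 3 cells of 1038.

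**Figure D3:**
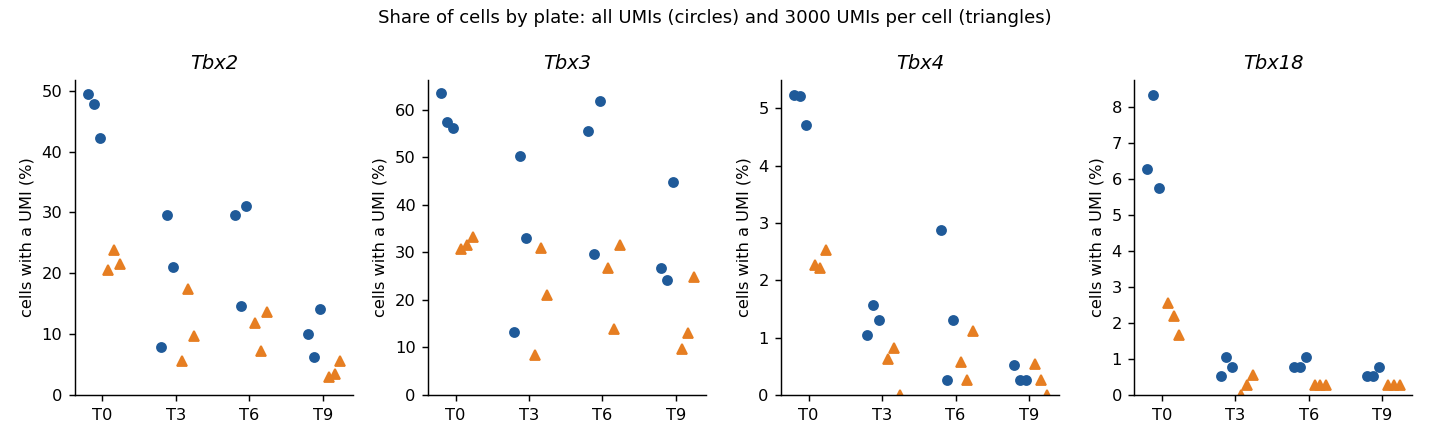
Share of cells with at least 1 UMI (vertical axis, percent, starting at 0) of *Tbx2*, *Tbx3*, *Tbx4*, and *Tbx18* in each plate of T0, T3, T6, and T9, from all UMIs (circles) and from 3000 UMIs per cell (triangles). In the thinned cells the 3 plates of T0 lie above those of T9 for all 4 genes.

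*Tbx2* and *Tbx3*, which are expressed together in several embryonic tissues, shared many cells, and *Tbx3* was found more often in cells with *Tbx2* before the cells were brought to 1 depth. At T0, 345 cells held UMIs of both, and *Tbx3* was found in 64.7% of the cells with *Tbx2* and in 54.2% of those without. The cells with *Tbx2* were deeper, with a median of 11467 UMIs against 9018.5. After thinning, the shares were 31.1% with and 32.1% without *Tbx2*. They were 21.7% and 20.4% for T3, 30.8% and 23.0% for T6, and 18.2% and 15.7% for T9. The plates of a time point were pooled for these shares, and both genes differed between plates. In the thinned cells of T3, plates 1, 2, and 3 gave 5.59%, 17.4%, and 9.63% for *Tbx2*. For *Tbx3* they gave 8.39%, 30.9%, and 21.0%. The part of the plates in the pooled shares was not tested. The limb factors *Tbx4* and *Tbx5* were found together in 2 cells of T0, 2 of T6, and none of T3 and T9.

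Cells with UMIs of at least 4 of 8 pluripotency genes numbered 105, of which 73 were at T0, and had less *Tbx2* than the other cells. In these cells of the T0 plates *Tbx2* stood at 19.5, 6.54, and 7.56 CPM, beside 107.5, 101.1, and 93.0 CPM in the other cells of the same plates. *Tbx3* stood at 122.7, 76.2, and 143.5 CPM, beside 146.4, 139.4, and 153.0 CPM. *Tbx2* UMIs lay in 10 of the 73 cells. *Tbx18* had 3 UMIs in the 73 cells, and *T* and *Tbx5* had none in any of the 105. The pluripotent cells of T0 had a median of 18066 UMIs and the other cells 9926.5, and no test was made, since the comparison is a description.

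At T3, T6, and T9, cells were divided into those with at least 1 UMI of *Scx*, the bHLH factor that marks tendon progenitors, and those with none. Only *Tbx2* and *Tbx3* passed the filter on these sums, and neither was called at any time point. Of the 11859 genes tested, 0.801% were called at T3, 0.523% at T6, 0.413% at T9, and 0.0928% for the change of the *Scx* effect from T3 to T9. *Tbx2* at T6 came nearest. It stood at 52.8, 31.3, and 49.4 CPM in cells with *Scx* and at 16.7, 18.5, and 33.1 CPM in cells without, from 9, 12, and 24 UMIs. It was higher with *Scx* in 3 of 3 plates, with a log2 difference of 0.94 (SE 0.34, unadjusted p = 0.0116, adjusted p = 0.361, edgeR). Without the filter on low counts the adjusted p was 0.0413. After thinning to 3000 UMIs per cell the log2 difference was 0.54 (adjusted p = 0.956, edgeR). Leaving out a plate of T6 gave adjusted p between 0.444 and 0.943. At T6 the cells with *Scx* were deeper, with medians of 10081, 7939, and 10909 UMIs in the plates against 7161, 7156, and 7874.5 without. At T3 and T9 the log2 difference of *Tbx2* was 0.10 (SE 0.34 and 0.36), and the direction differed among plates.

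*Tbx3* differed little between the classes. At T9 it stood at 36.8, 57.1, and 94.5 CPM with *Scx* and 47.2, 52.3, and 122.1 CPM without (log2 difference -0.21, SE 0.17, adjusted p = 0.978, edgeR). Its *Scx* effect differed by -0.51 between T9 and T3 (SE 0.26, unadjusted p = 0.0615, adjusted p = 0.726, edgeR). The other members were too rare for a test. *Tbx5* at T3 had 24 UMIs in cells with *Scx* and 0 in cells without, and *Tbx18* had 16 and 0, but the cells with *Scx* outnumbered the others there by 933 to 218.

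**Figure D4:**
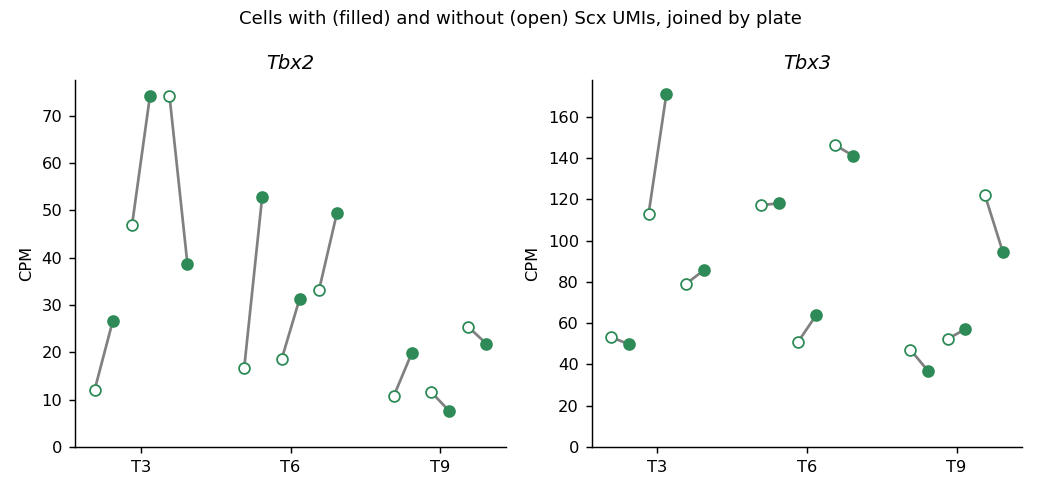
Level of *Tbx2* and *Tbx3* in CPM (vertical axis, starting at 0) in cells with (filled) and without (open) *Scx* UMIs, joined within each of the 3 plates of T3, T6, and T9. *Tbx2* is higher with *Scx* in all 3 plates of T6, and *Tbx3* follows the plate more than the class.

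In the Achilles tendon, *Scx* was first checked in each sample. It had 1151 and 996 counts in Wt and 287 and 296 in homoKO, 3.68-fold lower (log2 fold change -1.88, SE 0.17, adjusted p = 0.000429, edgeR), so that reads of the gene remained in both homoKO samples. All 9 tenocyte markers had counts in each sample. The samples held between 11188270 and 12398560 counts. Levels of different members are given in RPKM, counts per 1000 bases of exon and 1000000 counts.

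*Tbx15* was by far the highest member in tendon by RPKM, whereas in the culture it was among the rarest by CPM of UMIs. These measures differ, so only its place among the members is compared. *Tbx15* stood at 33.0 and 39.3 RPKM in Wt and at 38.6 and 45.0 RPKM in homoKO (1384, 1807, 1795, and 1984 counts), and the groups overlapped. *Tbx2* followed with 10.99 and 10.3 RPKM in Wt and 6.07 and 8.31 in homoKO. *Tbx4* had 7.94 and 6.04 RPKM in Wt and 4.53 and 5.02 in homoKO, and *Tbx3* 3.33 and 3.21 in Wt and 1.74 and 2.44 in homoKO. *Tbx6* (2.48 and 2.53 RPKM in Wt, 2.01 and 1.98 in homoKO) and *Tbx18* (1.84 and 1.52 in Wt, 0.992 and 1.152 in homoKO) came next. The order *Tbx15*, *Tbx2*, *Tbx4*, *Tbx3*, *Tbx6*, *Tbx18* was the same by mean in both genotypes, and neighbours in it overlapped only for *Tbx3* and *Tbx6* in homoKO.

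*Tbx5* had 7 and 1 counts in Wt and 1 and 0 in homoKO. *T* had 0 counts in all 4 samples, which allows up to 3 counts, or between 0.105 and 0.116 RPKM. Intervals and limits of this kind cover counting error only.

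**Figure D5:**
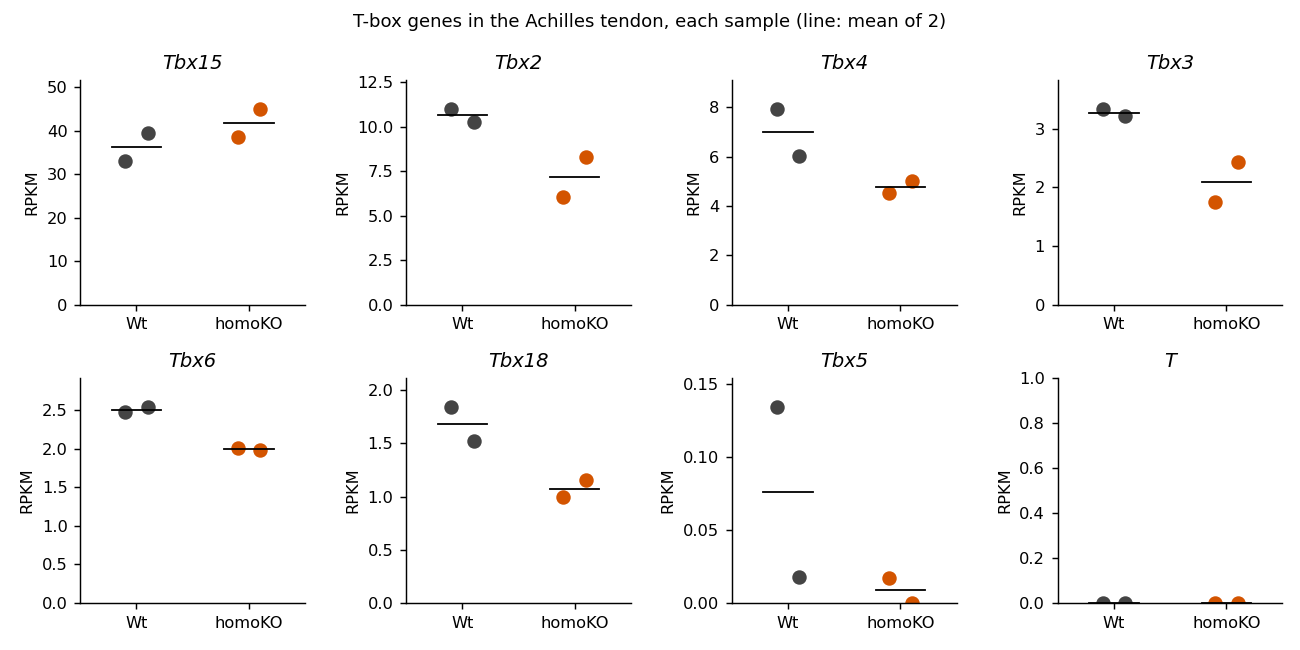
Level of each T-box gene in RPKM (vertical axis, starting at 0, own scale per gene) in the 2 Wt and 2 homoKO samples of the Achilles tendon, with a line at the mean, ordered by overall mean. *Tbx15* overlaps between the genotypes, both Wt samples of *Tbx2*, *Tbx3*, *Tbx4*, *Tbx6*, and *Tbx18* lie above both homoKO samples, and *T* is at 0.

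No member was called between homoKO and Wt, by edgeR or by DESeq2, and 3 had an unadjusted p under 0.05 in edgeR. Of the 14602 genes tested, 2510 had an unadjusted p under 0.05 and 3.84% were called. Among the tested were 6 members (all but *T* and *Tbx5*). The Wt samples lay above the homoKO samples for *Tbx2*, *Tbx3*, *Tbx4*, *Tbx6*, and *Tbx18*. The share of all genes with such a separation is not given here, so the number of these members is no sign of a common direction. The log2 fold changes were -0.52 for *Tbx2* (SE 0.20, unadjusted p = 0.0309, adjusted p = 0.226, edgeR), -0.60 for *Tbx3* (SE 0.25, unadjusted p = 0.0366, adjusted p = 0.248), and -0.50 for *Tbx4* (SE 0.22, unadjusted p = 0.0471, adjusted p = 0.281). For *Tbx18*, *Tbx6*, and *Tbx15* edgeR gave -0.60 (adjusted p = 0.448), -0.29 (adjusted p = 0.798), and 0.25 (adjusted p = 0.524). The median of the 6 was -0.51, beside -0.004 over all genes. Fewer cells of a type and less RNA per cell cannot be told apart in these samples.

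Markers of other tissues differed between the tendon samples. The 9 skeletal muscle genes, all with counts in each sample, summed to 34462 and 58784 CPM in Wt and to 75201 and 78876 CPM in homoKO. The 9 tenocyte genes summed to 165318 and 152130 CPM in Wt and to 72118 and 83137 in homoKO. The 7 chondrocyte genes, with *Matn1* at 0 throughout, summed to 795 and 726 CPM in Wt and to 46.9 and 29.1 in homoKO. The 6 adipocyte genes summed to 3437 and 1513 CPM in Wt and to 948 and 491 in homoKO, and the 6 endothelial genes to 732 and 741 in Wt and 539 and 462 in homoKO. The 6 pericyte and smooth muscle genes summed to 1445 and 1102 CPM in Wt and to 805 and 649 in homoKO, and the 6 keratinocyte genes, with *Krt1* at 0 throughout, to 15.9 and 12.6 in Wt and 97.8 and 86.1 in homoKO. The 6 haematopoietic genes, at 427 and 239 CPM in Wt and 320.1 and 305 in homoKO, overlapped between the genotypes. The part of these tissues in the T-box levels was not tested.

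Other T-box genes were counted in the same tables. *Mga*, a large T-box protein that also pairs with Max, was the only one of 9 with many UMIs (5222), and it fell from 172 ± 17.0 CPM at T0 to 74.7 ± 46.8 at T9 (SD, n = 3, log2 fold change -0.81, adjusted p = 0.0317, edgeR). All 3 plates of T0 but only plate 3 of T9 are on the side with more reads without a feature. Values of *Mga* by side are not given here. *Eomes*, a factor of early mesoderm and endoderm named after its values were seen, had 251 UMIs, with 6.18 ± 2.65 CPM at T0 and 5.38 ± 1.71 at T9, and was not called. *Mga* had 561 and 500 counts in Wt and 428 and 535 in homoKO, and none of these genes was called in tendon.

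Of 14 mesodermal and presomitic partners of *T* and *Tbx6*, only *Hes7*, an oscillating gene of the presomitic mesoderm, passed the filter in the culture, and it was not called (T9 against T0, log2 fold change 2.31, SE 0.96, adjusted p = 0.0625, edgeR). In tendon, where 3.84% of all genes were called, 4 were tested and 1 was called. *Ripply1*, a corepressor that acts on T-box proteins in somites, rose from 16 and 12 counts in Wt to 397 and 294 in homoKO (log2 fold change 4.60, SE 0.31, adjusted p = 9.34e-05, edgeR).

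Of 9 limb partners of *Tbx2* to *Tbx5*, 8 were tested in the culture. From T0 to T3, 6 fell and none rose, where 33.2% of all genes were called and 16.2% were called lower. The median log2 fold change of the 8 was -0.91, beside 0.01 over all genes. The zinc finger genes *Sall4* (-2.87, adjusted p = 0.000939, edgeR) and *Gli3* (-1.15, adjusted p = 0.00228), the bHLH gene *Hand2* (-1.52, adjusted p = 0.00014), and the homeobox gene *Prrx2* (-0.998, adjusted p = 0.00219) had the lowest values. At T9, 6 were lower than at T0 and 1 was higher, where 45.2% of all genes were called and 21.6% were called lower. *Hand2* (-1.87), *Gli3* (-1.80), and *Sall4* (-1.73) were lower, and *Fgf10*, the growth factor of the limb bud, was higher (1.65, SE 0.44, adjusted p = 0.00707, edgeR). *Pitx1*, a hind limb factor upstream of *Tbx4* that was singled out after its values were seen, fell from 64.2 ± 12.2 CPM at T0 to 15.3 ± 3.60 at T9 (SD, n = 3, log2 fold change -1.60, adjusted p = 0.00021, edgeR). None of these genes was called between T3 and T6, between T6 and T9, or among the 7 tested in tendon. Between *Scx* classes 1 was called, *Fgf10* at T6, lower in cells with *Scx* (-2.66, SE 0.55, adjusted p = 0.0217, edgeR). There 0.523% of all genes were called.

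The partners of *Tbx15* and *Tbx18* moved in both directions. Of 11 tested, 7 rose and 2 fell from T0 to T3, and 8 were higher and 3 lower at T9 than at T0. Of all genes, 33.2% were called in the former comparison, 16.2% lower, and 45.2% in the latter, 21.6% lower. At T3 the mesenchymal factor *Tcf21* (4.94), the homeobox gene *Six2* (3.16), and, in the other direction, *Pax3* (-4.82) were called, with adjusted p of 0.00039 or less (edgeR). At T9 *Tcf21* (4.35), *Six2* (3.85), and *Pax3* (-3.57) were called. *Pax3* had 180 UMIs at T0 and 3, 8, and 8 at T3, T6, and T9. It passed the filter on low counts only through T0, so its tests depend on its level there. Between T3 and T6, where 4.24% of all genes were called, 3 fell, among them *Tcf21* (-1.18) and *Alx1* (-0.94). In tendon, where 3.84% of all genes were called, 7 were tested and 1 was called. This was the somite gene *Meox1*, with 444 and 471 counts in Wt and 1095 and 834 in homoKO (1.07, SE 0.16, adjusted p = 0.00663, edgeR). In cells with *Scx*, edgeR called *Meox1* higher by 1.22 at T6 (adjusted p = 0.0417) and 1.60 at T9 (adjusted p = 0.00254). It also called the homeobox gene *Alx4* at T6 (2.08, adjusted p = 0.0312) and *Six2* at T9 (2.65, adjusted p = 0.00254). Of all genes, 0.523% were called between the classes at T6 and 0.413% at T9.

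Among 7 genes known as repression targets of *Tbx2* and *Tbx3*, 5 were tested in the culture. At T9, 3 of them, all inhibitors of cyclin-dependent kinases, were higher than at T0 and 1 was lower. Of all genes, 45.2% were called in this comparison and 21.6% were called lower. *Cdkn2b* rose from 14.1 ± 9.18 to 84.2 ± 15.3 CPM (SD, n = 3, log2 fold change 3.08, adjusted p = 1.2e-05, edgeR), *Cdkn1a* from 361 ± 58.8 to 1089 ± 462 CPM (2.04, adjusted p = 4.68e-05), and *Cdkn2a* from 3.56 ± 1.99 to 11.9 ± 0.70 CPM (2.21, adjusted p = 0.00282). *Cdh1*, which encodes E-cadherin, was lower (-2.11, adjusted p = 0.0131, edgeR). From T0 to T3, *Cdkn2b* rose (1.11, adjusted p = 0.0311) and *Cdh1* fell (-3.44, adjusted p = 0.00177, edgeR). There 33.2% of all genes were called and 16.2% were called lower. The part of *Tbx2*, *Tbx3*, or TGF-β2 in these changes was not tested. In tendon, where 3.84% of all genes were called, 3 were tested. *Cdkn1a* had 785 and 905 counts in Wt and 3199 and 2927 in homoKO (1.86, SE 0.15, adjusted p = 0.000262), and the gap junction gene *Gja1* had 2534 and 2941 in Wt and 1432 and 1226 in homoKO (-1.05, SE 0.15, adjusted p = 0.00565, edgeR). Between *Scx* classes, edgeR called *Gja1* higher in cells with *Scx* at T3 (0.70, adjusted p = 0.0204) and the *Scx* effect on *Cdkn1a* higher at T9 than at T3 (0.70, adjusted p = 0.0285). Of all genes, 0.801% were called in the former and 0.0928% in the latter.

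The Groucho co-repressors, 5 of 6 tested in the culture, were split. At T9, *Tle5* (0.80) and *Tle1* (0.69) were higher and *Tle4* (-2.25) and *Tle3* (-0.99) lower than at T0, with adjusted p between 6.83e-07 and 0.0409 (edgeR). Of all genes, 45.2% were called there and 21.6% were called lower. *Tle4* fell in steps, from 73.0 ± 11.95 CPM at T0 to 28.2 ± 3.31 at T3 and 12.03 ± 1.13 at T6 (SD, n = 3). Both steps were called, as were 33.2% of all genes in the first and 4.24% in the second. In tendon all 6 were tested and none was called.

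Over the 12 plates, the genes most alike in log2 CPM to each tested member were listed as a description. For *Tbx2* they were *Clspn* and *Dpf2* (Pearson's r of 0.980 and 0.957), and for *Tbx18* they were *Pkn2*, *Phf23*, and *Chd1* (0.979, 0.977, and 0.966). For *Tbx4* they were *Larp7*, *Mns1*, and *Jarid2* (0.964, 0.958, and 0.958), and for *Tbx5* they were *1700007J10Rik*, *Mtmr2*, and *Cep295* (0.931, 0.909, and 0.901). *C130075A20Rik*, *Chd8*, and *Gm43018* were most alike to *Tbx3* (0.970, 0.969, and 0.969). The plates share time points, depth, and the side of the library split, so these values hold the common course of the plates.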

How the data were processed

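Single cells and bulk tendon RNA were measured as described. The authors deposited UMI counts per gene and cell for the plates and raw read counts per gene for the tendon, both on GRCm38. The submitters' processing notes name UMI-tools 1.0.1 and HISAT2 2.2.1 for the cells and HISAT2 2.0.4 and featureCounts 1.5.0 for the tendon. Reads that map to several genes or to antisense genes can move counts between genes, and the strand setting of the counting is not given in the sources used here.

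Wells with under 200 detected genes (14 of 4608, with no member UMIs) and 3 entries without an Ensembl identifier (0.0642% of UMIs) were left out. Doublets were not called, since each well received 1 sorted cell. UMIs were summed per plate, and the 12 sums were fitted together with edgeR 4.0.16 in R 4.3.3 (TMM, filterByExpr, quasi-likelihood test, Benjamini-Hochberg adjustment over all genes tested, calls at an adjusted p under 0.05). *Scx* classes were summed per plate, giving 18 sums fitted with the plate as a block, and the 4 tendon samples were fitted alone. A log2 fold change comes from the fit, and CPM means are unadjusted. Thinning drew 3000 UMIs per cell. The side of the library split was taken from the mapping summary of the study. Alternatives were DESeq2 1.42.0, its size factors, no filter, other cell or *Scx* limits, thinning, a replicate block, the library split, and leaving out each sample. The test scripts were tested on simulated data. Tables and figures were made with Python 3.11.15, numpy 2.4.6, pandas 2.3.3, and matplotlib 3.10.9.

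The members, gene lists, and rules were chosen with earlier results of these data known. All members are named. From a list, the called genes with the largest absolute log2 fold change are named, at most 4 per comparison, together with the 3 genes most alike to each tested member in log2 CPM (prior count 2). Exceptions are marked. Some genes and sequences that meet these rules are not reported here. The well barcode list was not used. Plates that share a number did not deviate together, with a correlation over 0.1 in 4 of 18 pairs, so numbers were not taken to pair samples.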

Additional observations from a re-analysis of the deposited data

How the results depend on the processing

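Of the alternative log2 fold changes of single members, 356 kept their direction and their side of the threshold, 16 fell short of it, 11 newly passed it, and 25 turned in sign. Between T0 and T3, 3 members were called. With the library split as a covariate and with cells thinned to 3000 UMIs (only *Tbx2* and *Tbx3* then tested) the number was 1, and leaving out single plates gave 1 to 2. Between T6 and T9, where none was called, it was 1 (*Tbx2*) with DESeq2, without the filter, with the split as a covariate, in the 7 plates with more reads without a feature, and after thinning, and 0 to 1 with plates left out. From T0 to T9 it was 1 rather than 3 after thinning, again with 2 members tested. It was 4, with *Tbx3* added, without the filter, in the 6 plates compared, and without plate 3 of T9. Without the filter 1 member, *Tbx2*, was called between *Scx* classes at T6. The mean share of cells with a UMI of any member went from 55.8% to 33.5% on thinning. The value for *Tbx3* at T3 against T0 turned to 0.10 with the split as a covariate and to 0.14 in the 7 plates, an alternative added after seeing the data, and that for *Tbx5* to 0.28 with the covariate. At T6 against T3, *Tbx3* turned to -0.090 with the covariate and -0.19 in the 7 plates, and *Tbx4* to 0.35 in the 7 plates. The *Scx* difference of *Tbx2* turned to -0.25 (T3) and -0.38 (T9) on thinning, and the change of this difference from T3 to T9, 0.0016, to -0.064 with DESeq2, -0.094 without the filter, and -0.12 on thinning. With single plates left out, signs turned for *Tbx2* (-0.36 to 0.13), *Tbx3* (-0.096 to 0.49), and *Tbx4* (-0.87 to 0.17) at T6 against T3, and for *Tbx5* (-0.10 to 0.93) and *Tbx18* (-0.50 to 0.31) at T9 against T6. They also turned between *Scx* classes for *Tbx2* at T3 (-0.29 to 0.85) and T9 (-0.35 to 0.31), for *Tbx3* at T6 (-0.017 to 0.14), and for the change of the *Tbx2* difference (-0.76 to 0.39). No value that turned had passed the test, and the causes were not tested. With the replicate number as a block, 2 members were called between T0 and T3 (*Tbx4* was lost, adjusted p = 0.0535, edgeR), and no other call changed. Depth limits *T*, *Tbx6*, and *Tbx15*, which held 4, 14, and 40 UMIs in 12 plates and could not be tested there.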
